A study of Mus musculus with 28 samples.

Results

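The genes described are the translation initiation factors and their 4E-BP repressors: every gene whose symbol in the annotation of the array starts with Eif1, Eif2, Eif3, Eif4, Eif5 or Eif6, without the X- and Y-linked pair Eif2s3x and Eif2s3y. The rule found 45 genes among 18193 with a probe set of their own, and each was represented by its brightest probe set, the group of short probes that reports one transcript. Of the 45, 44 passed the filter on dim genes and were tested among 13931 genes. The exception, the helicase gene Eif4a3, lay between 0.4 and 7 on all 28 arrays. Eif4g1, the main scaffold of the cap-binding complex, and Eif4ebp3, the third 4E-BP, had no probe set assigned to them alone and were not analysed here.

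Initiation starts when eIF4E binds the cap of an mRNA, the scaffold eIF4G joins it and the helicase eIF4A unwinds the leader. The small ribosomal subunit, carrying eIF1, eIF1A, eIF3, eIF5 and the eIF2 complex with initiator tRNA, then scans to the start codon, and eIF5B joins the large subunit. The 4E-BPs hold eIF4E away from the scaffold until the kinase complex mTORC1 phosphorylates them, while kinases that phosphorylate eIF2 block its recharging by eIF2B and so slow initiation under stress.

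Expression was measured on 28 one-colour arrays of mouse tissue. The mice carried hGFAP-Cre, a recombinase transgene whose promoter is active in neural progenitors and in glia, and were p53-/-. What varied was Rictor, the gene for a subunit that mTORC2, the second mTOR complex, needs. The 10 medulloblastomas, tumours of the cerebellum, comprised 3 that were hGFAP-Cre::p53-/- with no Rictor allele named (p53-null only), 2 that were also Rictor+/- (heterozygous) and 5 that were also Rictor-/- (null). The 6 gliomas were split into 4 Rictor-heterozygous tumours and 1 each of the p53-null-only and Rictor-null genotypes. Of the 12 normal brain pieces there were 5 Rictor-heterozygous, 5 Rictor-null and 1 p53-null only sample, all hGFAP-Cre::p53-/-, plus 1 piece from a normal mouse with wild-type p53, Z2. The ages of the mice, the brain region of the normal pieces and whether arrays of one group came from separate animals are not stated in the labels. The p-values thus reflect how far these particular arrays scatter, and that scatter could be technical in part. Arrays are named by the letter and number in their labels, and the same code can occur in a tumour and in a normal brain.

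Before the results, some arrays stood apart. All 5 granule neuron precursor markers were higher in medulloblastoma than in normal brain, and all 5 oligodendrocyte precursor markers were higher in glioma. The summed intensity of 8 mature neuron markers was 14070 to 18481 in normal brain, 1553 to 11516 in medulloblastoma and 571 to 4329 in glioma. That of 4 cycling-cell markers was 21.3 to 662, 2272 to 5898 and 691 to 4206, respectively. The normal brain C2 had the highest value of both the cycling-cell sum and, at 906, the precursor sum among normal brains. The normal brains B2, C5 and Z2 had Gabra6, a gene of mature cerebellar granule neurons, at 1740, 4153 and 4918, against 116 at most in the other normal brains. Some tumours had it too: the medulloblastomas B6 and C6 at 1637.5 and 1324, and the gliomas B7, B2 and A4 at 1014, 675 and 203.5. In the other tumours Gabra6 was 187 at most. The medulloblastoma C6 had the highest neuron marker sum among the tumours. The actin 3'/5' ratio, which rises with RNA degradation, was 3.74 ± 1.42 (SD, n = 12) in normal brain, 2.55 ± 0.83 (n = 10) in medulloblastoma and 2.23 ± 0.46 (n = 6) in glioma. Rictor itself was 68.8 to 236 in the Rictor-null medulloblastomas, 261 and 277 in the heterozygous and 223 to 273 in the p53-null-only ones, whereas Rictor-null (213 to 444) and heterozygous (251 to 389) normal brains overlapped. Where its probe set lies relative to the deleted part was not established here.

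Initiation factor genes were mostly higher in medulloblastoma than in normal brain. Of the 44, 32 rose and 3 fell at an adjusted p under 0.05, and 9 did not pass. Over all genes tested 64.2% passed in this comparison, 32.2% higher and 32% lower, so the members differed from the background mainly in direction. The median log2 difference of the 44 was 0.56, against 0.0068 over all genes tested. Differences are on the scale of log2(intensity + 6.3), which understates the change of dim genes, and they come from one limma fit of all 28 arrays with tissue and genotype as terms. In bulk tissue, fewer cells of a type and less RNA per cell cannot be told apart, and neuron, cycling-cell and precursor markers moved with tissue as given above; their part in these differences was not tested. With the actin ratio as a covariate 30 members rose and 3 fell. Leaving out the normal brain C2, or B2, C5 and Z2 together, gave 32 and 3 again, and leaving out the medulloblastomas B6 and C6 gave 33 and 3. Titles carry the prefix YZ or YZ2, whose meaning is not stated; within YZ arrays 27 rose and 3 fell, and within YZ2 arrays 28 and 4. The calls lost were those of Eif2ak2, Eif2ak3, Eif2b4, Eif2b5, Eif3h and Eif4e3 within YZ, and of Eif2b2, Eif3c, Eif3f and Eif4e within YZ2. In every array of medulloblastoma 11 members lay above all 12 normal brains (8.76% of all genes did so) and 3 lay below them all (7.96%).

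Fewer members passed in glioma: 20 rose, 5 fell and 19 did not pass. Over all genes tested 53.9% passed, 28.4% higher and 25.5% lower. The median log2 difference of the members was 0.28 against 0.051 over all genes. In 13 members every glioma lay above every normal brain (9.45% of all genes), and in 1, Eif5a2, every glioma lay below (9.23%). Both tumour types were compared with the same 12 normal brains, so the 2 sets of differences share their control arrays. With the actin ratio as a covariate 19 members rose and 5 fell. Within YZ arrays 21 rose and 4 fell, with the calls of Eif1b and Eif2b4 lost. The only YZ2 gliomas were B3 and B7. Within YZ2 arrays 5 rose and 3 fell, and 17 calls were lost: Eif1ax, Eif1b, Eif2b1, Eif2b4, Eif2d, Eif2s2, Eif3b, Eif3d, Eif3i, Eif3l, Eif4a1, Eif4a2, Eif4e, Eif4ebp2, Eif4g2, Eif5a and Eif6. Of these only Eif4e changed sign. With the prefix as a term in the fit of all arrays, 20 rose and 5 fell, and no call was lost.

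**Figure D1:**
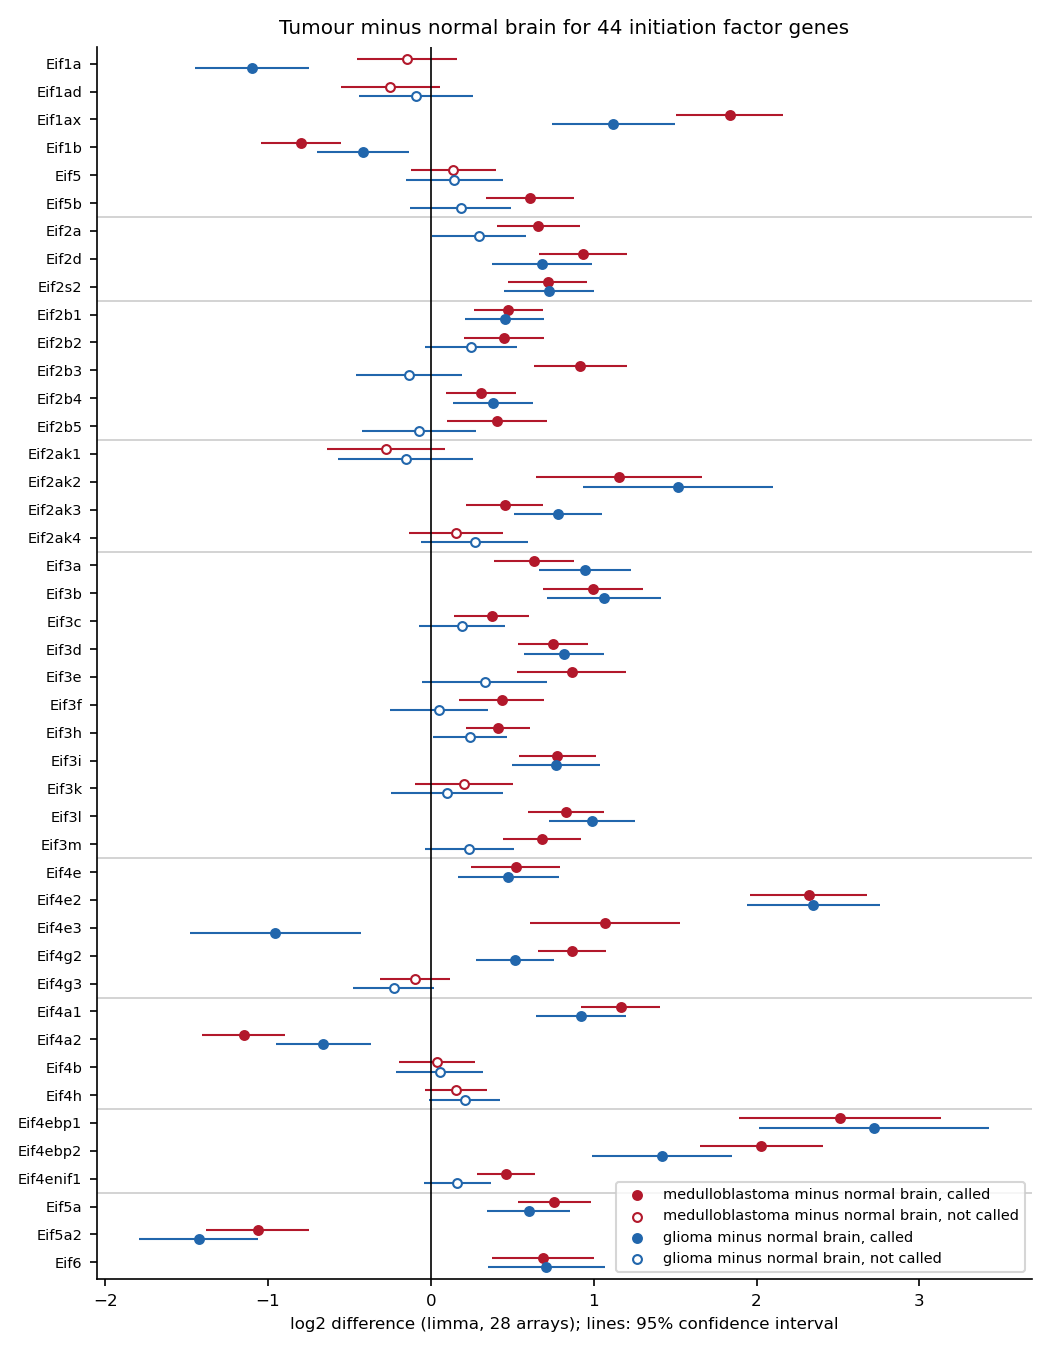
Log2 difference from normal brain of 44 initiation factor genes, grouped by role (top to bottom: start codon and subunit joining, eIF2 and alternatives, eIF2B, eIF2 kinases, eIF3, cap-binding proteins and scaffolds, eIF4A helicases and cofactors, 4E-BPs and 4E-T, eIF5A and eIF6), for medulloblastoma (red) and glioma (blue). Filled points passed an adjusted p under 0.05, and lines are 95% confidence intervals; Eif4ebp1 and Eif4e2 lie farthest to the right in both tumours, at 2.51 and 2.32 in medulloblastoma, and Eif4a2 and Eif5a2 lie to the left of 0 in both.

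Both 4E-BP genes lay above normal brain in every tumour. Eif4ebp1, which encodes 4E-BP1, had intensities of 20.4, 38.6 and 75.9 (lowest, median and highest) in normal brain, 101.4, 312 and 681 in medulloblastoma, and 151, 445 and 741 in glioma. No tumour array of either type overlapped the normal brains. The lowest medulloblastoma was C6 and the lowest normal brain the wild-type Z2. Eif4ebp1 was 5.71-fold higher in medulloblastoma (log2 difference 2.51 ± 0.30, SE; adjusted p = 6.11e-08) and 6.60-fold higher in glioma (2.72 ± 0.34; adjusted p = 3.55e-07). The difference between the tumour types, -0.21 ± 0.37, did not pass (adjusted p = 0.719). The probe set used is of a design that may cross-hybridise with related sequences, but the next brightest, which is not, gave 2.09 and 2.31. Another, dim one gave 0.43 and 0.46.

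Eif4ebp2, which encodes 4E-BP2, the main 4E-BP of the adult brain, was 27.7, 45.7 and 71.5 in normal brain, 125, 212 and 316 in medulloblastoma, and 85.3, 148 and 159 in glioma. Again no array overlapped, and the highest normal brain was C2. It was 4.08-fold higher in medulloblastoma (log2 difference 2.03 ± 0.18; adjusted p = 6.35e-10) and 2.67-fold higher in glioma (1.42 ± 0.21; adjusted p = 3.44e-06). It was also higher in medulloblastoma than in glioma (0.61 ± 0.22; adjusted p = 0.0414). That call of Eif4ebp2 was lost with no filter on dim genes (0.61, limma, adjusted p = 0.0520) and with the actin ratio as a covariate (0.56, limma, adjusted p = 0.0670). Within YZ (0.63) and YZ2 arrays (0.77) it did not pass, nor without single arrays such as the glioma A4 (0.63, limma, adjusted p = 0.0836). Of the other 4 probe sets for Eif4ebp2, 2 were too dim to be tested and 2, with mean intensities of 40.1 and 12.2, passed in neither tumour. Eif4enif1, which encodes the eIF4E transporter 4E-T, passed in medulloblastoma alone (0.46 ± 0.09; adjusted p = 4.62e-05); in glioma its difference was 0.16 ± 0.10 and its range of 241 to 364 overlapped that of normal brain, 231 to 293. The difference between the tumour types passed (0.30 ± 0.11; adjusted p = 0.0341).

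Eif4e, the cap-binding protein that the 4E-BPs repress, moved less. It was 336, 489 and 597 in normal brain, 480, 757 and 990 in medulloblastoma, and 393, 721 and 915 in glioma, and both tumours overlapped normal brain. It rose by 0.52 ± 0.13 in medulloblastoma (adjusted p = 0.00132) and by 0.48 ± 0.15 in glioma (adjusted p = 0.0100). Of 3 further Eif4e probe sets 1 was too dim to be tested, and the other 2 passed in neither comparison. The brighter of them gave 0.09 in medulloblastoma and -0.04 in glioma, so the rise of Eif4e rests on 1 of 3 tested probe sets. The glioma rise of the brightest one did not pass without the glioma C3 (0.36; adjusted p = 0.0713) or with the actin ratio as a covariate (0.33; adjusted p = 0.102), and it was -0.13 within YZ2 arrays. Compared within each array, Eif4ebp1 rose relative to Eif4e by 2.05 in medulloblastoma (permutation test, adjusted p = 8e-05) and by 2.35 in glioma (exact permutation test, adjusted p = 0.000215), with every tumour above every normal brain.

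Eif4e2, which encodes the cap-binding homologue 4EHP, a partner of translational repressors, also lay above normal brain in every tumour. Its intensities were 39.2, 55.4 and 83.5 in normal brain, 197, 344 and 529 in medulloblastoma, and 206, 278 and 449 in glioma. The tumours did not overlap normal brain, where C2 was the highest. The log2 differences were 2.32 ± 0.17 (adjusted p = 2.50e-11) and 2.35 ± 0.20 (adjusted p = 1.10e-09). Of its other 4 probe sets 2 also rose (1.61 and 0.73 in medulloblastoma, 1.70 and 0.78 in glioma) and 2 did not pass (-0.02 and -0.0027 in medulloblastoma, -0.27 and -0.19 in glioma). The probe sets of Eif4e2 thus differed in whether they rose.

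Eif4e3, another cap-binding homologue, rose in medulloblastoma and fell in glioma, the only member called in opposite directions in the 28 arrays. It was 63.0, 113 and 174 in normal brain, 106, 200 and 432 in medulloblastoma and 31.9, 51.2 and 65.4 in glioma. All gliomas lay below all medulloblastomas, and only 1 glioma, B3, exceeded the lowest normal brain. It rose by 1.07 ± 0.22 in medulloblastoma (adjusted p = 0.000164), fell by 0.96 ± 0.26 on the log2 scale in glioma (adjusted p = 0.00260) and differed between the tumours by 2.03 ± 0.27 (adjusted p = 2.49e-06), and its other probe set did the same (0.96, -0.91 and 1.87). Within YZ arrays the medulloblastoma difference of Eif4e3 was 0.66 and did not pass (adjusted p = 0.151). Among medulloblastomas Eif4e3 was lowest in the Rictor-null C1 and C5, at 106 and 129, and highest in the Rictor-null C6 and C2, at 432 and 401. The scaffold homologue Eif4g2, which supports initiation without eIF4E, rose by 0.87 ± 0.10 in medulloblastoma (adjusted p = 4.59e-08) and by 0.52 ± 0.12 in glioma (adjusted p = 0.000560). The canonical scaffold gene Eif4g3 passed in neither (-0.10 ± 0.11 and -0.23 ± 0.12).

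**Figure D2:**
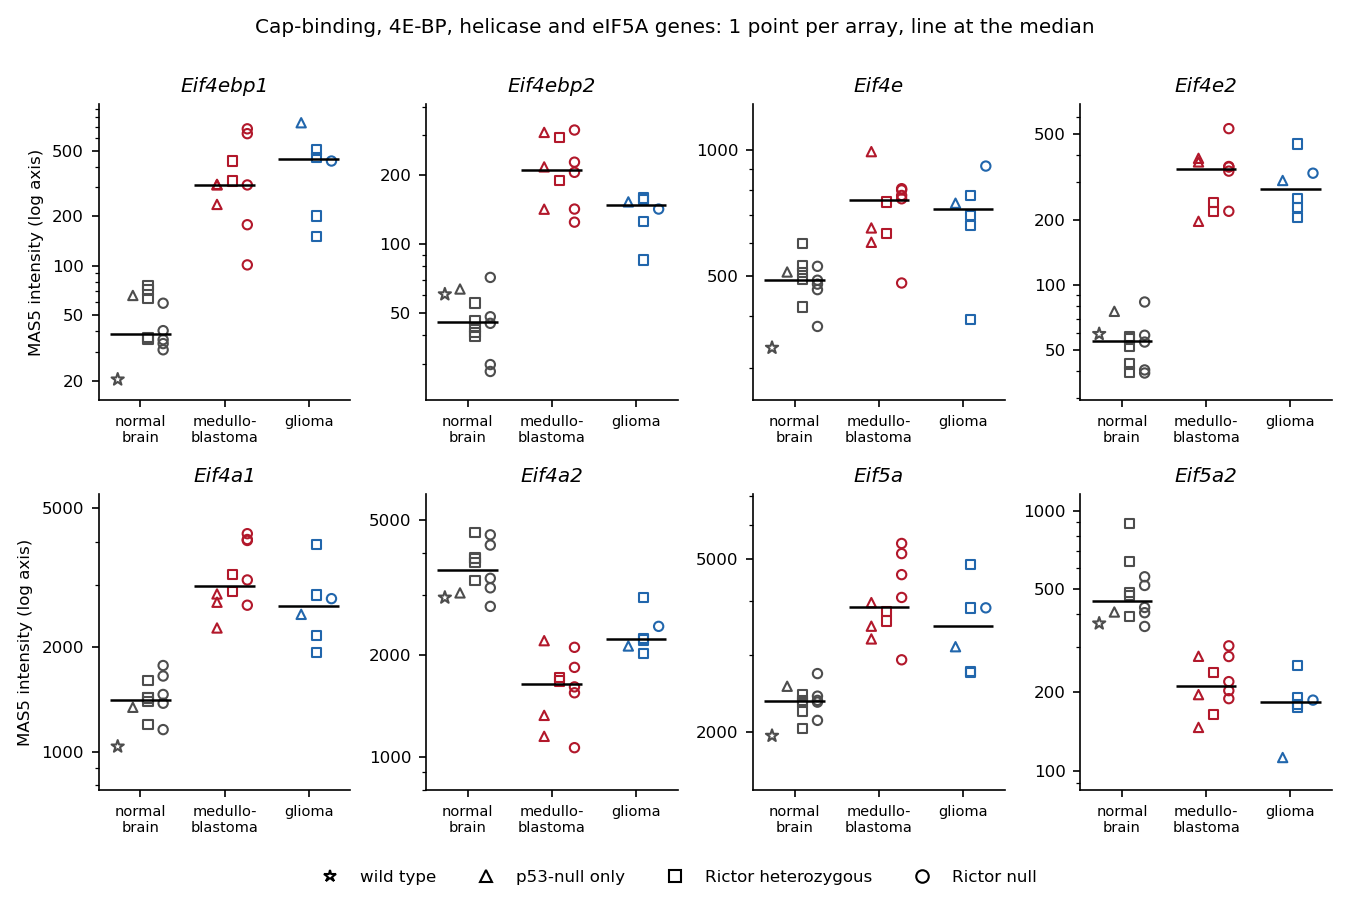
MAS5 intensity on a log axis of 8 genes in 12 normal brains, 10 medulloblastomas and 6 gliomas, 1 point per array with the genotype as its shape and a line at the median of each tissue. Eif4ebp1, Eif4ebp2, Eif4e2, Eif4a1 and Eif5a lie above normal brain in every tumour array, Eif5a2 lies below in every one, and Eif4e overlaps.

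The pair of eIF4A helicase genes moved in opposite directions. Eif4a1, which encodes the main eIF4A of growing cells, was 1034, 1408 and 1767 in normal brain, 2265, 2996 and 4226 in medulloblastoma, and 1927, 2614 and 3928 in glioma. Both tumours lay wholly above normal brain. The log2 differences were 1.17 ± 0.12 (adjusted p = 3.77e-09) and 0.92 ± 0.13 (adjusted p = 2.79e-06), and its other 2 probe sets rose as well. Its close homologue Eif4a2, linked to microRNA repression and abundant in neurons, was 2779, 3552 and 4589 in normal brain, 1064, 1641 and 2202 in medulloblastoma, and 2016, 2221 and 2955 in glioma. All medulloblastomas lay below all normal brains, as did 5 of the 6 gliomas. The exception, B3, had the highest oligodendrocyte, astrocyte and microglia marker sums among the gliomas, while the highest neuron marker sum was that of B7. Eif4a2 fell by 1.15 ± 0.12 on the log2 scale in medulloblastoma (adjusted p = 1.24e-08) and by 0.66 ± 0.14 in glioma (adjusted p = 0.000346); it has 1 probe set. Within YZ2 arrays the glioma difference of Eif4a2 was -0.47 and did not pass (adjusted p = 0.225). In the 28 arrays it was the only member called lower in medulloblastoma than in glioma (-0.49 ± 0.15; adjusted p = 0.0160). That call of Eif4a2 was lost without the glioma A4 (-0.48; adjusted p = 0.0504), without the glioma C3 (-0.46; adjusted p = 0.0519) and within YZ2 arrays (-0.47; adjusted p = 0.326). The eIF4A cofactors Eif4b and Eif4h did not pass in either tumour.

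Ratios of 2 genes within an array were taken on the same log2(intensity + 6.3) scale. The log2 ratio of Eif4a1 to Eif4a2 was higher by 2.34 in medulloblastoma than in normal brain (permutation test, adjusted p = 8e-05) and by 1.53 in glioma (exact permutation test, adjusted p = 0.000215). It was also 0.81 higher in medulloblastoma than in glioma (exact permutation test, adjusted p = 0.00412). These p-values are two-sided and adjusted over 12 ratio tests, and the raw p of the rises of Eif4a1 to Eif4a2 against normal brain, 2e-05 and 0.000108, are the smallest the permutations allow. The ratio ran from -1.94 to -0.65 in normal brain, from 0.32 to 1.54 in medulloblastoma and from -0.45 to 0.83 in glioma, so every tumour exceeded every normal brain. The ratio of Eif4ebp1 to Eif4ebp2 rose by 1.44 in glioma (exact permutation test, adjusted p = 0.000923). In medulloblastoma its difference was 0.61 (permutation test, adjusted p = 0.0900), and without the medulloblastoma C4 or A6 it was 0.77 and 0.72 and passed (adjusted p = 0.0256 and 0.0494). Between the tumours it differed by -0.82 (exact permutation test, adjusted p = 0.0956), and it passed without the glioma B7 (-1.03) or the medulloblastoma C1 (-0.99).

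Of the eIF5A genes, which encode a factor that helps ribosomes through difficult peptide bonds and carries hypusine, Eif5a rose and Eif5a2 fell. Eif5a was 1958, 2351 and 2723 in normal brain, 2930, 3878 and 5431 in medulloblastoma, and 2740, 3499 and 4862 in glioma, with no overlap. The log2 differences were 0.76 ± 0.11 (adjusted p = 1.11e-06) and 0.60 ± 0.12 (adjusted p = 0.000223). Eif5a2 was 358, 447 and 891 in normal brain, 147, 211 and 302 in medulloblastoma, and 112, 183 and 254 in glioma, also with no overlap. It fell by 1.06 ± 0.15 on the log2 scale in medulloblastoma (adjusted p = 1.29e-06) and by 1.43 ± 0.18 in glioma (adjusted p = 2.72e-07). With its second brightest probe set the medulloblastoma difference was -0.36 and did not pass (limma, adjusted p = 0.0534), while the glioma call was kept. The log2 ratio of Eif5a to Eif5a2 rose by 1.89 and 1.96 (permutation and exact permutation test, adjusted p = 8e-05 and 0.000215) and differed by -0.07 between the tumours (exact permutation test, adjusted p = 0.789). Eif6, which keeps the large subunit from joining too early, rose by 0.69 ± 0.15 and 0.71 ± 0.17 (adjusted p = 0.000309 and 0.00126).

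**Figure D3:**
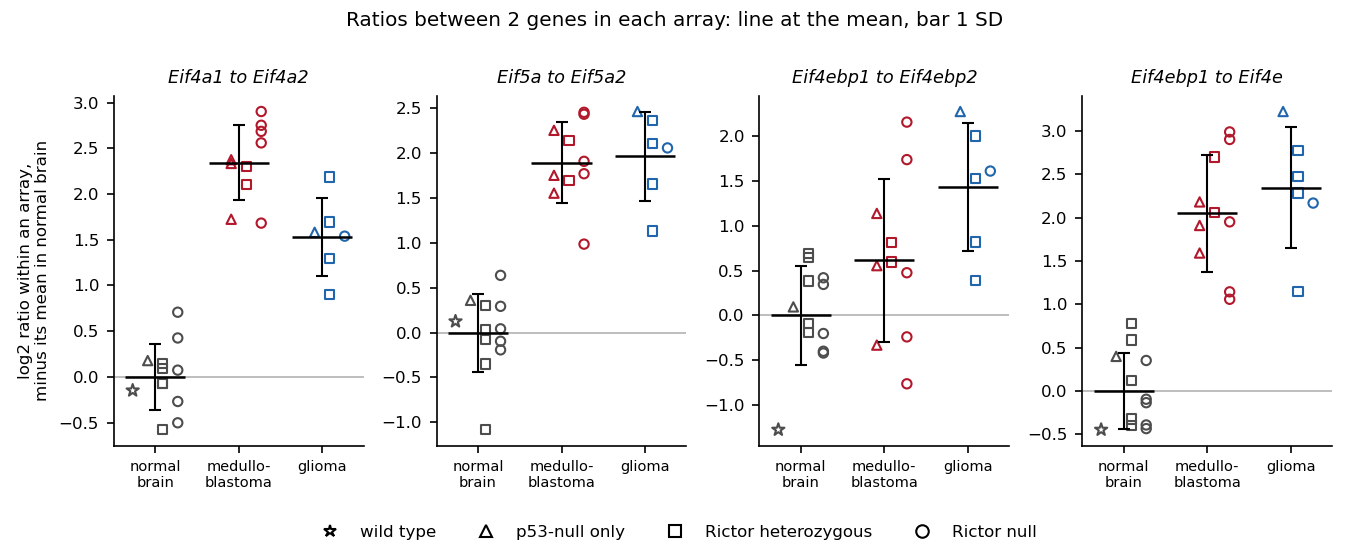
Log2 ratio of 2 initiation genes within each array, minus its mean in normal brain, with the mean as a line and 1 SD as a bar (12 normal brains, 10 medulloblastomas, 6 gliomas; shape gives the genotype). The ratios of Eif4a1 to Eif4a2 and of Eif5a to Eif5a2 are above normal brain in every tumour array, and Eif4a1 to Eif4a2 is higher in medulloblastoma (mean 2.34) than in glioma (1.53).

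The upstream sequences of the genes that moved in opposite directions were read from RefSeq promoter windows (build GRCm38.p6), which reach from 250 bases before to 50 after a transcript start and cover 36 of the 45 members. Eif1a, Eif2b3, Eif3e, Eif3h, Eif3i, Eif4e3, Eif4ebp1, Eif4g2 and Eif6 are not in the table. They were searched on both strands for the E-box CACGTG, the palindrome that MYC family factors and other helix-loop-helix proteins bind, a MYC family gene, Mycn, having been 4.36 higher on the log2 scale in medulloblastoma and 0.89 higher in glioma. It occurred in the windows of 9 of the 36 members (Eif1b, Eif3a, Eif3f, Eif3k, Eif4a1, Eif4e, Eif4h, Eif5a and Eif5a2), and in 8.09% of all genes of the table. These 9 held genes that rose, genes that fell and genes that did not pass. The element TTGCATCA, a composite C/EBP-ATF site, occurred in 0 of the 36 members and in 1.03% of all genes of the table. At so low a share, 36 members are too few for a count of 0 to say anything about them. Shown are the 250 bases before the start of the genes with a single window, 5′ to 3′ along the gene, with the E-box in capitals. Eif4a1 (chr11:69672424-69672673, minus strand) has 1, at -189 from the start, Eif4a2 (chr16:23107218-23107467, plus strand) has none, and Eif5a2 (chr3:28781027-28781276, plus strand) has 2, at -142 and -117.
Eif4a1: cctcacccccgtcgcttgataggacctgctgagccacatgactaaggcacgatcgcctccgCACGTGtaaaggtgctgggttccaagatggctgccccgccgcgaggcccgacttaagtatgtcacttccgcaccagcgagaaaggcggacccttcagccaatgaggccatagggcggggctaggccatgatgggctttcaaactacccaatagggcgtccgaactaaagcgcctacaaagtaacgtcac
Eif4a2: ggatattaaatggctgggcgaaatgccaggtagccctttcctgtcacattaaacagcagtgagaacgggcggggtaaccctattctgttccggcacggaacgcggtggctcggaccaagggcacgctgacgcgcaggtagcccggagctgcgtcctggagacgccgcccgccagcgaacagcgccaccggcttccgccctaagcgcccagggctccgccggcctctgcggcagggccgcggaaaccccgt
Eif5a2: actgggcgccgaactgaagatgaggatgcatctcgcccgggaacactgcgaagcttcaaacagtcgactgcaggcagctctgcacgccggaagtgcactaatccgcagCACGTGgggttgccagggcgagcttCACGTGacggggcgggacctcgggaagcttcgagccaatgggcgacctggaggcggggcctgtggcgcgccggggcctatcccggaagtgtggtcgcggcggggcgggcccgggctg
Of these, Eif4a1 rose in the tumours while Eif4a2 and Eif5a2 fell, so an E-box was present both in a gene that rose and in one that fell. A match of letters is a description of the sequence, and no binding was measured.

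Genes of start codon selection and subunit joining went in different directions: 2 of 6 rose and 1 fell in medulloblastoma, and 1 rose and 2 fell in glioma. Eif1ax, one of the genes for eIF1A, was 256, 322 and 562 in normal brain, 693, 1320 and 1858 in medulloblastoma, and 546, 734 and 958 in glioma; only the normal brain C2 reached the gliomas. It rose by 1.84 ± 0.16 (adjusted p = 3.60e-10) and 1.12 ± 0.18 (adjusted p = 1.32e-05). A further probe set of Eif1ax also rose (0.74 and 0.65) but another fell (-1.57 and -1.06), the only member with probe sets called in opposite directions, so the direction of Eif1ax depends on the probe set. Eif1a, a near-identical copy whose probes may share transcripts with Eif1ax, fell by 1.10 ± 0.17 on the log2 scale in glioma (adjusted p = 6.71e-06), where it was 95.2, 139 and 187 against 171, 314 and 392 in normal brain. In medulloblastoma its brightest probe set gave -0.14 ± 0.15 (adjusted p = 0.409) and its second probe set 0.88, which passed. In glioma the second probe set of Eif1a gave -0.12 and did not pass (limma, adjusted p = 0.622).

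Eif1b, a homologue of the start codon gatekeeper eIF1, was 920, 1142 and 1567 in normal brain, 496, 754 and 854 in medulloblastoma and 584, 870 and 1263 in glioma. All medulloblastomas lay below normal brain and the gliomas overlapped it. The falls were 0.80 ± 0.12 and 0.42 ± 0.14 on the log2 scale (adjusted p = 2.17e-06 and 0.0121). The glioma fall of Eif1b did not pass within YZ arrays (-0.48; adjusted p = 0.113) or YZ2 arrays (-0.42; adjusted p = 0.112). Eif5b, which joins the subunits, rose in medulloblastoma (0.61 ± 0.13; adjusted p = 0.000247), where its range of 122 to 216 lay above the 78.3 to 113 of normal brain, and its other 2 probe sets did not pass. Its glioma difference was 0.18 ± 0.15. Eif5, the GTPase activator of eIF2, and Eif1ad passed in neither tumour.

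All 3 tested genes of eIF2 and of alternative tRNA delivery rose in medulloblastoma and 2 rose in glioma. Of the genes for subunits of eIF2 itself, only Eif2s2 was among them. Eif2s2, the beta subunit of eIF2, was 961, 1200 and 1371 in normal brain, 1153, 2014 and 2780 in medulloblastoma and 1382, 1895 and 2313 in glioma. The gliomas lay above all normal brains, and the p53-null-only A6 was the lowest medulloblastoma. The rises were 0.72 ± 0.12 and 0.72 ± 0.13 (adjusted p = 7.30e-06 and 6.26e-05). Eif2d, which can deliver tRNA to ribosomes without eIF2, rose by 0.93 ± 0.13 and 0.68 ± 0.15 (adjusted p = 7.27e-07 and 0.000409), with medians of 176 in normal brain, 307 in medulloblastoma and 257 in glioma. The glioma rise of Eif2d did not pass with its second brightest probe set (0.31, limma, adjusted p = 0.0779). It did not pass with the mean of its probe sets either (0.24, limma, adjusted p = 0.0606). Eif2a rose in medulloblastoma (0.66 ± 0.12; adjusted p = 3.94e-05) and gave 0.30 ± 0.14 in glioma (adjusted p = 0.0753).

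The 5 subunit genes of eIF2B, the exchange factor that recharges eIF2, all rose in medulloblastoma, by 0.31 to 0.92, and 2 rose in glioma, Eif2b1 and Eif2b4. With the actin ratio as a covariate, Eif2b4 and Eif2b5 no longer passed in medulloblastoma, nor did Eif2b4 in glioma. The glioma call of Eif2b4 was also lost within YZ and within YZ2 arrays, and that of Eif2b1 within YZ2 arrays. Eif2b3, the gamma subunit, separated the tumours most: it was 83.5, 112 and 138 in normal brain, 165, 217 and 336 in medulloblastoma and 71.7, 106 and 133 in glioma. Every medulloblastoma lay above every normal brain and every glioma, and the gliomas lay within or just below the normal range. It rose by 0.92 ± 0.14 in medulloblastoma (adjusted p = 2.09e-06), gave -0.13 ± 0.16 in glioma (adjusted p = 0.495) and differed by 1.05 ± 0.17 between the tumours (adjusted p = 2.66e-05); it has 1 probe set. Eif2b1, the alpha subunit, rose in both, by 0.48 ± 0.10 and 0.45 ± 0.12 (adjusted p = 0.000242 and 0.00207). Its normal brain range was 107 to 133, that of the medulloblastomas 132 to 246 and that of the gliomas 134 to 192.

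Of the 4 eIF2 kinases, Eif2ak2 and Eif2ak3 rose in both tumours and the others passed in neither. Eif2ak2, which encodes the double-stranded RNA sensor PKR and is induced by interferon, was dim: 15.0, 28.7 and 46.4 in normal brain, 35.9, 73.2 and 89.3 in medulloblastoma and 44.8, 76.3 and 281 in glioma. The gliomas B1 and B3 were the highest, at 281 and 188, and the other 4 lay between 44.8 and 88.0. The rises were 1.16 ± 0.25 and 1.52 ± 0.28 (adjusted p = 0.000217 and 6.67e-05). Eif2ak3, which encodes the endoplasmic reticulum stress sensor PERK, was 161, 207 and 295 in normal brain and 311, 350 and 455 in glioma, with no overlap; its rises were 0.45 ± 0.11 in medulloblastoma and 0.78 ± 0.13 in glioma (adjusted p = 0.00115 and 1.71e-05). The amino acid sensor gene Eif2ak4 gave 0.16 and 0.27, and the haem-regulated kinase gene Eif2ak1 -0.27 and -0.15.

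The scaffold eIF3 was represented by 11 subunit genes, of which 10 rose in medulloblastoma and 5 in glioma (Eif3a, Eif3b, Eif3d, Eif3i and Eif3l); none fell. Eif3b, a core subunit with 1 probe set, was 225, 269 and 348 in normal brain, 298, 558 and 821 in medulloblastoma and 438, 521 and 881 in glioma. The medulloblastoma C6 was the only tumour within the normal range. The rises were 0.99 ± 0.15 and 1.06 ± 0.17 (adjusted p = 2.06e-06 and 1.00e-05). The gliomas also lay wholly above normal brain for Eif3a, Eif3d, Eif3i and Eif3l, with rises of 0.94, 0.82, 0.77 and 0.99. Eif3e reached 6665 in the medulloblastoma C4 against 1530 to 3185 in the other 9, and rose by 0.86 ± 0.16 (adjusted p = 5.10e-05). Eif3k, a peripheral subunit, passed in neither tumour (0.21 ± 0.15 and 0.10 ± 0.17).

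**Figure D4:**
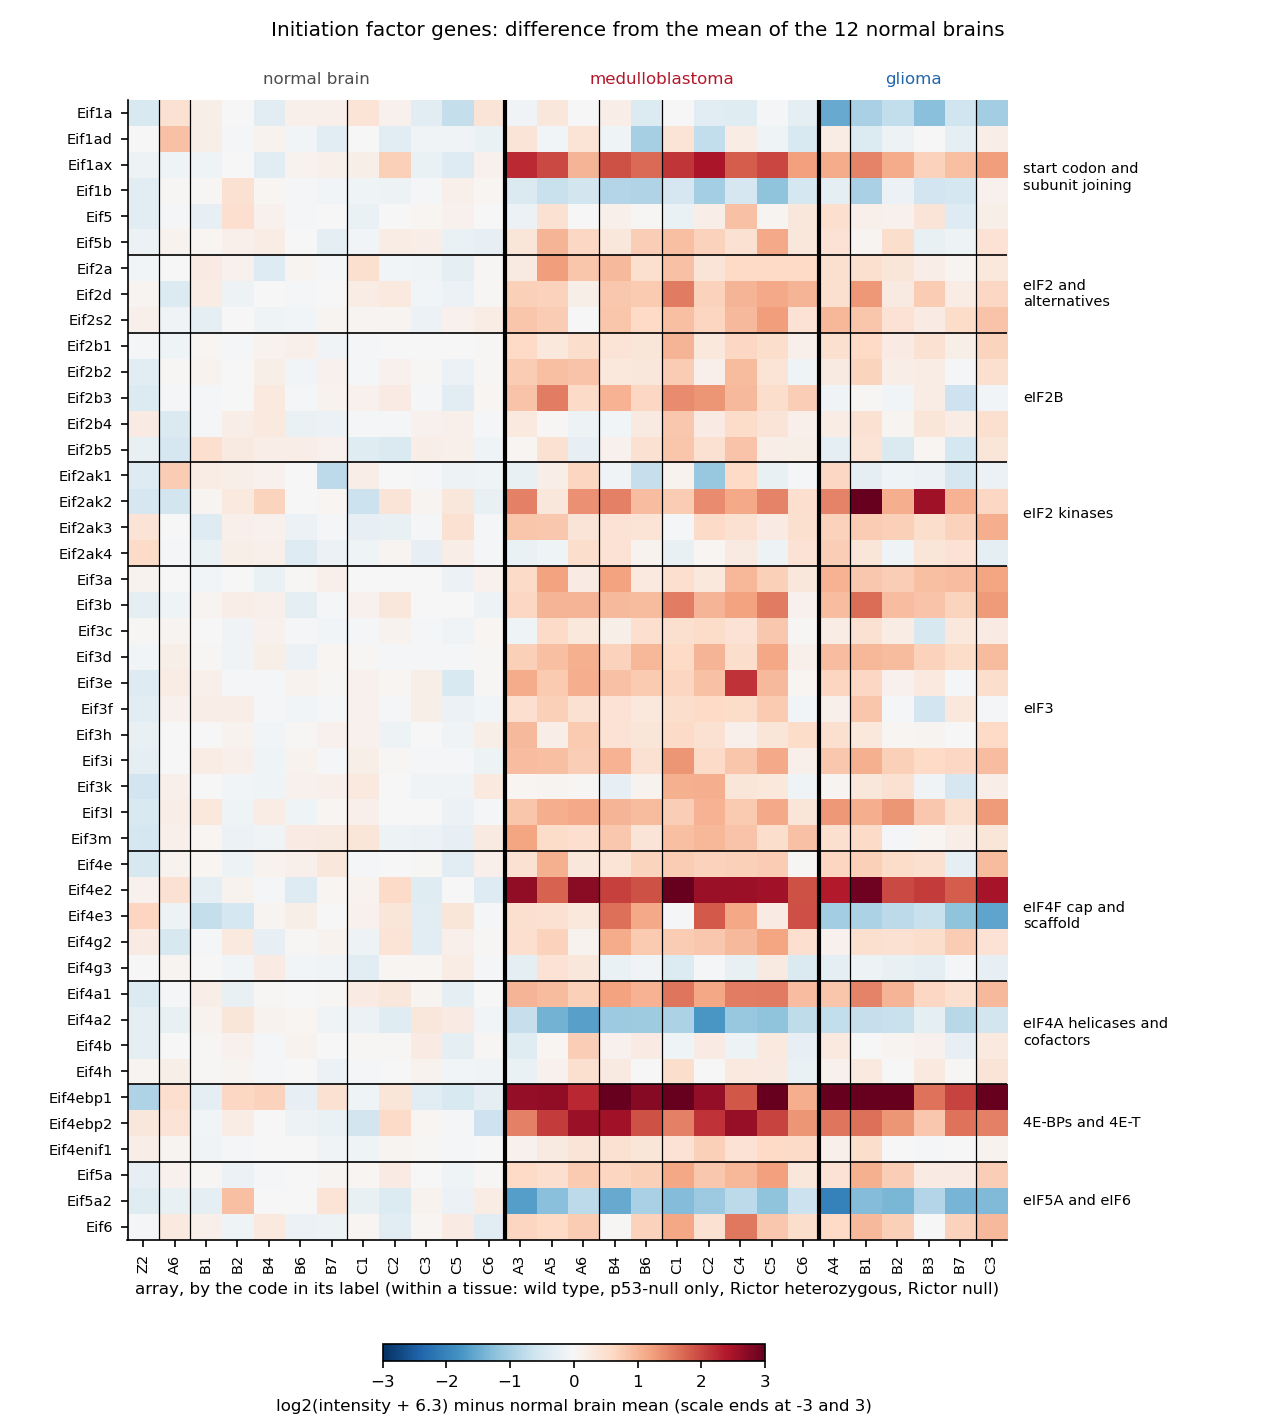
Log2(intensity + 6.3) of 44 initiation factor genes on each of 28 arrays, minus the mean of the 12 normal brains, in red where higher and blue where lower (colour scale from -3 to 3); thick lines separate tissues and thin lines genotypes. Most rows are red across the medulloblastomas, Eif1b, Eif4a2 and Eif5a2 are blue in them, and the medulloblastoma C6 is paler than the other medulloblastomas for many genes.

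Single arrays recurred at the edges of these ranges. Among the 35 members that passed in medulloblastoma, C6 was the medulloblastoma closest to normal brain for 13, followed by A6 for 8. The normal brain C2 was the one closest to medulloblastoma for 10, followed by B4 for 7. C6 was the medulloblastoma with the most neuron marker signal and C2 the normal brain with the most cycling-cell signal; whether this accounts for their positions was not tested.

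Between the tumour types 12 members passed, 11 higher and 1 lower in medulloblastoma. Over all genes 28.4% passed, 13.6% higher and 14.8% lower, and the median log2 difference was 0.075 for the members and 0.0078 for all genes. The largest were Eif4e3 and Eif2b3, given above, and Eif1a (0.95 ± 0.18; adjusted p = 0.000239), followed by Eif1ax (0.71 ± 0.20; adjusted p = 0.00695). The number that passed depended on the arrays included. It was 3 higher and 1 lower within YZ arrays, 2 and 0 within YZ2 arrays, and 8 and 1 with the actin ratio as a covariate. It was 6 higher without the medulloblastoma C2 or the glioma A4, B2 or B3, and 7 without the medulloblastoma B4, B6 or C5 or the glioma B7 or C3. The lower count was 0 without the glioma A4 or C3 and 2 without the medulloblastoma A3, A5, B4, C1, C4 or C6, the glioma B1 or the normal brain B2 or C2. With single arrays left out, the calls lost at least once were those of Eif2b5, Eif3e, Eif4a2, Eif4ebp2, Eif4enif1, Eif4g2 and Eif5b. Eif1ax and Eif3m were lost as well within YZ arrays, and Eif1a, Eif1ax and Eif3m within YZ2 arrays, where Eif2b3 and Eif4e3 remained.

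No initiation gene passed in any comparison of Rictor genotypes, which asked whether loss of mTORC2 moved these transcripts. With limma, 0 of 44 members passed for Rictor-null against p53-null-only medulloblastoma (0.00718% of all genes passed), 0 against Rictor-heterozygous medulloblastoma (0.00718%), 0 for normal brain (0%) and 0 for the 1 Rictor-null against the 4 heterozygous gliomas (0.0215%), where the single Rictor-null array has to borrow its variance from the remaining groups. An interaction term, the Rictor effect in medulloblastoma minus that in normal brain, passed for 0 members as well (0%). At an unadjusted p under 0.05 there were 2, 0, 1, 3 and 0 members, against 605, 199, 439, 637 and 264 of 13931 genes. Median differences of the members were 0.034, 0.12, -0.024, 0.18 and 0.13, against 0.056, 0.011, 0.0075, -0.038 and 0.0039 over all genes.

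**Figure D5:**
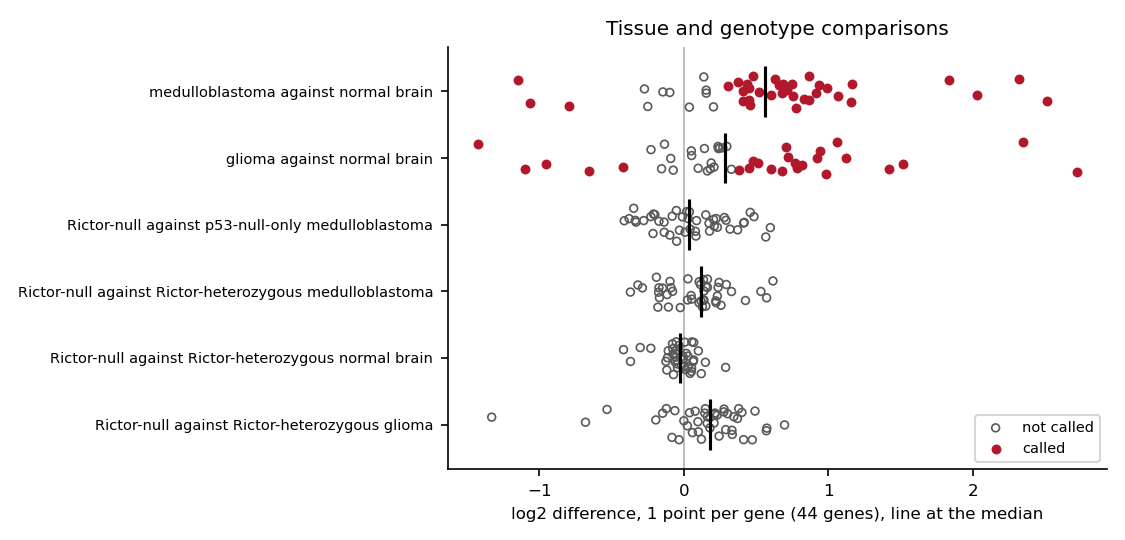
Log2 difference of 44 initiation factor genes in the comparisons of tumour with normal brain and in 4 comparisons of Rictor-null with other genotypes, 1 point per gene with a line at the median; filled red points passed an adjusted p under 0.05. In the genotype comparisons no gene passed, and apart from the comparison with 1 Rictor-null glioma the differences lay between -0.42 and 0.62.

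The values of Eif4ebp1 were spread widely within Rictor-null medulloblastoma. In p53-null-only medulloblastomas Eif4ebp1 was 236, 311 and 313, in heterozygous ones 329 and 434, and in Rictor-null ones 101.4, 178, 310, 636 and 681. The Rictor-null range contained all values of the other genotypes. The difference from p53-null-only tumours was 0.08, with a 95% confidence interval of -1.08 to 1.25, and that from heterozygous tumours -0.32 (-1.66 to 1.02), so the intervals spanned more than 1 log2 unit in both directions. For Eif4ebp2 the differences were -0.14 (-0.90 to 0.63) and -0.29 (-1.16 to 0.59). In normal brain Eif4ebp1 was 35.9, 36.8, 63.5, 71.5 and 75.9 in heterozygous and 30.9, 33.7, 35.6, 40.4 and 59.3 in Rictor-null pieces, an overlapping difference of -0.42 ± 0.24 (limma, adjusted p = 0.9997). In glioma the Rictor-null value of Eif4ebp1, 434, fell among the heterozygous 151, 201, 456 and 506.

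The members with the smallest p in each genotype comparison are given as values, since none passed. Eif2d in medulloblastoma was 196, 286 and 288 in p53-null-only, 303 and 310 in heterozygous, and 287, 360, 361, 390 and 526.4 in Rictor-null tumours. The Rictor-null tumours lay above the others apart from 1 array (0.57 ± 0.24 against p53-null only; limma, adjusted p = 0.981). Eif4a1 was 2265, 2686 and 2837 in p53-null-only and 2633, 3112, 4040, 4066 and 4226 in Rictor-null tumours (0.46 ± 0.20; adjusted p = 0.981), and Eif4g2 differed by 0.41 ± 0.21. Against heterozygous tumours the members were Eif3k (0.62 ± 0.32), Eif6 (0.53 ± 0.33) and Eif4e2 (0.57 ± 0.35).

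In normal brain Eif2b5, the catalytic subunit of eIF2B, was 241, 252, 253, 265 and 314 in heterozygous and 162, 169, 201, 245 and 254 in Rictor-null pieces, which overlapped (-0.37 ± 0.15; limma, adjusted p = 0.9997). In medulloblastoma it was 240 and 302 against 250, 255, 303, 398 and 405, and the difference between the Rictor effects, 0.59 ± 0.33, did not pass. The other members with the smallest p were Eif4ebp1 and Eif2s2 (0.15 ± 0.10) in normal brain, and Eif6 (0.58 ± 0.35) and Eif1ad (0.54 ± 0.33) for the difference between the Rictor effects. The Rictor-null glioma had Eif1b at 1263, above the heterozygous 584 to 1009, Eif3h at 1553, above 1020 to 1261, and Eif2ak2 at 44.8, below 62.6 to 281 (0.70 ± 0.28, 0.49 ± 0.23 and -1.33 ± 0.62; adjusted p = 0.983, 0.9999 and 0.9999). All 3 lay outside the heterozygous range, but 1 array gives no spread of its own.

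Other genes of translation, in lists set beside the members, did not all move the same way. Over all genes tested, 32.2% were higher and 32% lower in medulloblastoma than in normal brain, against 28.4% and 25.5% in glioma. Of 11 tested genes of mTORC1 and the translation kinases, 2 rose and 4 fell in medulloblastoma and 3 rose and 2 fell in glioma. Mknk2, a kinase of eIF4E, rose in medulloblastoma (1.11 ± 0.15; adjusted p = 5.46e-07) and gave 0.03 in glioma, while Deptor, an mTOR inhibitor, fell in both (-1.02 and -1.79 on the log2 scale; adjusted p = 0.00116 and 1.35e-05). Akt1s1, whose product PRAS40 inhibits mTORC1, rose in glioma (0.85 ± 0.22), and Rptor, which encodes the mTORC1 subunit that recruits 4E-BPs, fell in medulloblastoma (by 0.45 ± 0.11). Of 14 initiation cofactors 7 rose and 2 fell in medulloblastoma, and 3 rose and 4 fell in glioma. Pabpc1, the cytoplasmic poly(A)-binding protein, rose in both (1.27 and 0.98; adjusted p = 5.29e-08 and 3.30e-05), as did the recycling factor gene Abce1 (0.95 and 0.87). Cyfip2, a neuronal partner of eIF4E repression, fell by 3.13 and 2.05 on the log2 scale, and Paip1, a partner of poly(A)-binding protein, by 0.72 and 1.59.

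Of 10 targets of the eIF2 stress response, 7 rose and none fell in glioma (28.4% and 25.5% of all genes). In medulloblastoma 2 rose and 2 fell (32.2% and 32%). Between the tumours, 7 were lower in medulloblastoma than in glioma (14.8%). Atf5 gave 1.98 ± 0.41 in glioma and 0.83 ± 0.36 in medulloblastoma (adjusted p = 0.000252 and 0.0465), and Trib3 1.88 ± 0.29 and 0.55 ± 0.25 (adjusted p = 5.89e-06 and 0.0597). Vldlr and Ddit3 fell in medulloblastoma (by 0.93 and 0.41 on the log2 scale; adjusted p = 0.000183 and 0.0282). Of 10 elongation and release factors 5 rose and 2 fell in each tumour, beside the same shares of all genes. Eef1b2 and Eef1d, subunits of the eEF1 exchange factor, rose (0.96 and 0.89 in medulloblastoma, 0.57 and 1.24 in glioma), whereas Eef1a2, the eEF1A of neurons and muscle, and Gspt2, a release factor homologue, fell (-2.06 and -1.3 in medulloblastoma, -1.74 and -1.05 in glioma, on the log2 scale). Eef1a2, Eif4a2 and Cyfip2 fell in the same tissues as the neuron markers, of which 7 of 8 fell in medulloblastoma and 8 of 8 in glioma. Within a tissue Eif4a2 did not always follow the sum of these markers. The normal brain B2 had the lowest sum, 14070, and the highest Eif4a2, 4589. The glioma B7 had the highest sum, 4329, and the lowest Eif4a2, 2016. The medulloblastoma C6 had the highest sum, 11516, and a high Eif4a2, 2105. The part of the neuron markers in these falls was not tested.

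Ribosomal protein genes resembled the initiation factors in direction. Of 47 tested, 41 rose and 2 fell in medulloblastoma (32.2% and 32% of all genes), with a median of 0.75. In glioma 37 rose and 3 fell (28.4% and 25.5%), with a median of 0.56. The 47 were taken by symbol and include Rps19bp1, which encodes a protein that binds Rps19 and rose in glioma (0.42). Rps25 and Rps27l rose (2.16 and 1.97 in medulloblastoma, 1.03 and 1.48 in glioma), and the variants Rps4l and Rpl22l1 fell (-2.52 and -1.10 on the log2 scale in medulloblastoma, -2.08 and -1.10 in glioma). Rps27 also fell in glioma (-0.80) and did not pass in medulloblastoma (-0.42).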

How the data were processed

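Expression was measured on 28 Affymetrix Mouse 430 2.0 arrays. The deposited values are linear MAS5 intensities, scaled per array, and were made with GCOS per the submitters' processing notes; no versions are named for either. Trimmed means were 99.1 to 99.5 and no arrays held identical values; the number of arrays limits precision. Probe sets with 1 symbol (34945 of 45101) were kept, the brightest per gene was used, log2(intensity + 6.3) was taken, and genes above the 30th percentile of probe set means (3.88 on the log2 scale) were tested. limma 3.58.1 in R 4.3.3 (lmFit, eBayes with trend, Benjamini-Hochberg over all 13931 genes) was applied to tissue plus genotype over all arrays and to genotypes within tissues. Ratios used two-sided permutation tests, with 100000 resamples where not exact (scipy 1.17.1). Scripts were tested on simulated data. Members, lists and tests were chosen with earlier results of these data known. The rule for named genes took Eif4ebp1, Eif4ebp2, Eif4ebp3, Eif4e, Eif4a1, Eif4a2, Eif4g1, Eif5a and Eif5a2, the called member with the largest rise and fall of each role in each tumour, the 3 members with the smallest p per genotype comparison, and up to 2 called genes per direction in each other list. Further members named beside them, such as Eif2ak3 and Eif3e, were chosen after their values were seen. Alternatives changed the pseudocount, filter, probe set, scaling, trend, title prefix, genotype term, actin covariate, replicate block and arrays left out.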

Additional observations from a re-analysis of the deposited data

Results flagged for a closer look

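In 4 of 144 combinations of a named gene and a group of arrays, a single array stood far from the rest of its group; chance alone gives about 1 in 20. Eif4e in Rictor-null medulloblastoma was lowest in C6, at 480.3, with the others between 763.7 and 807.4. Eif1b in Rictor-heterozygous normal brain was highest in B2, at 1566.5, with the others between 1092.6 and 1196. Eif2b1 was highest in the medulloblastoma C1, at 246, with the other 9 between 131.6 and 185.3. Eif2b1 in Rictor-null normal brain was lowest in C1, at 113.3, with the others between 119.5 and 120.3.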

How the results depend on the processing

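No initiation gene passed in a genotype comparison under any alternative run. Against normal brain, leaving out each array in turn gave 32 to 33 higher and 3 to 4 lower members in medulloblastoma, and 19 to 21 and 5 in glioma. With the second brightest probe set, which passed the filter on dim genes in 31 members, the counts were 17 and 1 in medulloblastoma and 12 and 3 in glioma. Besides members with no such probe set tested, 7 calls were lost in medulloblastoma (Eif2b2, Eif3c, Eif3l, Eif4e, Eif4ebp2, Eif5a2 and Eif5b) and 5 in glioma (Eif1a, Eif2d, Eif3l, Eif4e and Eif4ebp2). Within the YZ2 arrays, where B3 and B7 were the only gliomas, glioma gave 5 and 3. With the prefix as a term it gave 20 and 5. Between the tumours the 11 higher members became 7 with no filter, 6 with the mean of all probe sets, 5 with the second probe set, 3 within YZ arrays, 2 within YZ2, 7 without the normal brains B2, C5 and Z2, 3 without the gliomas A4, B2 and B7, and 6 to 12 with each array left out. The 1 lower member became 2 with a median filter, quantile normalization, or without the normal brain C2 or B2, C5 and Z2, 0 within YZ2, and 0 to 2 with each array left out. The cause was not tested. With the second probe set Eif1ax reversed (-1.57, -1.06 and, between the tumours, -0.50), as did Eif4e in glioma (-0.038), which also gave -0.13 within YZ2, and Eif3m between the tumours (-0.33). The Eif4ebp1 to Eif4ebp2 ratio in medulloblastoma was 1.10 with the mean of probe sets (permutation test, adjusted p = 0.00018) and 0.44 to 0.77 with each array left out, and between the tumours -1.03 to -0.65. Tumours and normal brains share label codes, and what a shared code means is not stated. Same-coded arrays were compared by their residuals, the part of each value left after tissue and genotype were fitted. Correlations of these residuals were -0.122 to 0.251 in 7 medulloblastoma pairs, 4 of them over 0.1. In 4 glioma pairs they were -0.0861 to 0.17, 1 of them over 0.1. The consensus correlation, also taken after tissue and genotype, was 0.199. The residuals of the tumour correlated best with those of its own normal brain in 2 and 1 pairs. Among 12 normal brains the own one ranked 1 for the medulloblastomas C2 and C5 and 2 for C6, A6 and C1. It ranked 9 for B6 and 11 for B4. For the gliomas B2, B1, C3 and B7 it ranked 1, 3, 5 and 10. Not every pair exceeded 0.1, so the main fit did not take the codes as pairing. Whether a shared code marks 1 animal was not settled here. With the code as a fixed replicate block the counts were 31 and 3, 17 and 3, and, between the tumours, 2 and 0 (Eif2b3 and Eif4e3 remained). The block lost the call of Eif2b4 in medulloblastoma and those of Eif1b, Eif2b1, Eif2b4, Eif4e and Eif4e3 in glioma. As a random block the counts were 32 and 3, 20 and 5, and 11 and 1.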
